A study of Mus musculus with 6 samples.

Results

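The Fras1-Frem basement membrane complex was examined through its 5 genes, Fras1, Frem1, Frem2, Frem3 and Grip1, which are 5 of the 46983 gene rows in the count table. The genes were chosen by their measured difference between control NCCs and NCCs deficient in BAF155 and BAF170, so their values in that contrast are a description and carry no test. RNAseq had been performed on GFP+ neural crest cells (NCCs) sorted from E11.25 mouse embryos, with 3 control samples and 3 samples deficient in both BAF proteins, called deficient here. Controls carried the Wnt1 Cre driver and the Rosa26 mTmG reporter and were heterozygous for the floxed alleles of BAF155 and BAF170, whereas deficient embryos carried the same driver and reporter and were homozygous for both floxed alleles. Each control thus also lost a copy of each gene in the cells where Cre acted, and Wnt1 Cre is active in the dorsal neural tube as well as in NCCs. Total counts were 9662823, 8191219 and 11661941 in control replicates 1, 2 and 3, and 12633319, 16557026 and 19808620 in deficient replicates 1, 2 and 3. The shallowest deficient library held more counts than the deepest control.

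Fras1, Frem1 and Frem2 are very large extracellular matrix proteins built around repeated CSPG-type domains. They stabilise each other in a complex beneath the basement membrane of embryonic epithelia, where the complex holds the epithelium to the underlying mesenchyme. Grip1 is a cytoplasmic PDZ scaffold that brings Fras1 and Frem2 to the cell surface, and loss of Fras1, Frem1, Frem2 or Grip1 in the mouse gives the blebbing mutants, with blistered skin, fused eyelids and kidney defects.

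The deleted genes were read first. Smarcc1, which encodes BAF155, stood at 42.1, 55.0 and 35.1 CPM (counts scaled to library size, with TMM) in the controls and at 29.4, 26.4 and 24.5 CPM among deficient libraries. All deficient values were below all control values, and Smarcc1 fell by 0.71 on the log2 scale (SE 0.156, edgeR adjusted p = 0.0676), turning to 0.19 with libraries scaled to embryonic markers, where the median over all tested genes was 0.85. Its call was lost without control replicate 1 or 2 or deficient replicate 2 or 3, with log2 fold changes from -0.86 to -0.53 when each library was left out, and with offsets corrected for exon length (-0.57). The fits without those libraries called, in that order, 0, 61, 264 and 17 genes across the table, against 689 with all libraries. Smarcc1 was also called lower by DESeq2 (-0.70, DESeq2 adjusted p = 0.00072) and with library totals (-0.64, edgeR adjusted p = 0.0039). Smarcc2, which encodes BAF170, had a log2 fold change of -0.11 (SE 0.0577, edgeR adjusted p = 0.251) and was not called. With scaling to embryonic markers Smarcc2 was called higher at 0.75, as were 60.5% of all tested genes. Counts over a whole gene do not isolate its floxed part.

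Frem1 is secreted by mesenchymal cells and joins the complex from the mesenchymal side. Its level was 12.7, 12.3 and 7.39 CPM in control replicates 1, 2 and 3 and 2.66, 2.51 and 2.37 CPM in deficient replicates 1, 2 and 3. The groups did not overlap, and the deficient libraries lay close together while control replicate 3 was the lowest control. The group means were 10.8 ± 2.95 CPM (SD, n = 3) and 2.51 ± 0.145 CPM (SD, n = 3), a fitted log2 fold change of -2.09 (SE 0.243). These values rested on 119, 92 and 90 counts in the controls and 34, 41 and 50 counts in the deficient libraries. In bulk samples such as these, fewer cells of a type and less RNA per cell cannot be told apart.

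Fras1, the founding member, is a transmembrane protein made mainly by epithelial cells. It stood at 7.34, 11.8 and 4.51 CPM among controls, against 3.84, 2.57 and 1.71 CPM among deficient libraries. The groups did not overlap, but control replicate 3 and deficient replicate 1 were close, and their 95% Poisson intervals, 3.40 to 5.88 CPM and 2.84 to 5.07 CPM, overlapped. Such intervals cover counting error only. The means were 7.87 ± 3.66 CPM (SD, n = 3) and 2.70 ± 1.07 CPM (SD, n = 3), with a fitted log2 fold change of -1.55 (SE 0.397).

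Frem2 is, like Fras1, a transmembrane member needed for the complex to assemble at the basement membrane. It was measured at 5.42, 11.0 and 2.79 CPM among controls, against 3.76, 2.69 and 1.57 CPM among deficient libraries. Deficient replicate 1 exceeded control replicate 3, so the groups overlapped, and control replicate 2 was the highest library. The fitted log2 fold change was -1.25 with an SE of 0.529. It was -0.63 without control replicate 2.

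Grip1 acts inside the cell and is the only member that is not an extracellular matrix protein. It stood at 4.15, 7.09 and 3.61 CPM among controls, against 3.37, 3.91 and 1.61 CPM among deficient libraries. Deficient replicate 2 exceeded control replicate 3, so the groups overlapped, and control replicate 2 was again highest and deficient replicate 3 lowest. The log2 fold change was -0.73 (SE 0.369), and it was -0.40 without control replicate 2 and -0.41 without deficient replicate 3.

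Frem3, the remaining family member, was close to absent. Its counts were 0, 2 and 1 in the controls and 1, 0 and 0 in the deficient libraries. It did not pass the filter on low counts, so 4 of the 5 genes had a fitted value, and no fold change is given for Frem3 because no library passed a floor of 3 counts. That floor corresponds to 0.142 CPM in the deepest library, deficient replicate 3, and to 0.401 CPM in the shallowest, control replicate 2.

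**Figure D1:**
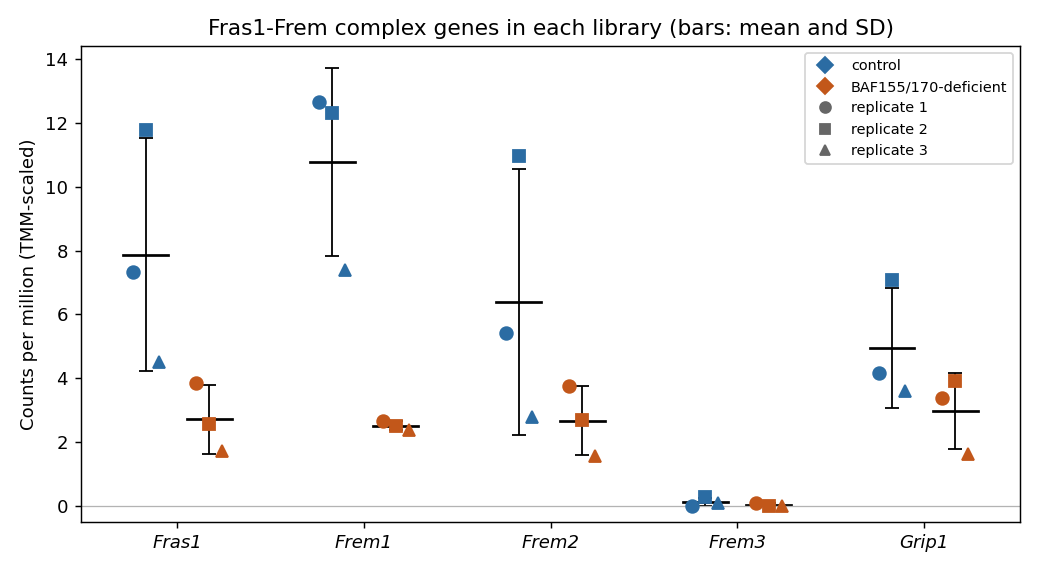
TMM-scaled CPM (vertical axis) of the 5 complex genes in each library, with the 3 control libraries in blue, the 3 deficient libraries in orange, a marker shape for each replicate, and bars for the mean and SD. Frem1 and Fras1 do not overlap between the groups, Frem2 and Grip1 do, and Frem3 lies at or near 0. With scaling to embryonic markers, the log2 fold change of Grip1 turned to 0.17, against a median of 0.85 for all tested genes.

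By the rule used across the table (an edgeR adjusted p no higher than 0.1, a log2 fold change no smaller than 0.58 in size, and mean CPM no lower than 2), 2 of the 4 fitted members, Frem1 and Fras1, were called lower. Across the 13961 genes tested, 4.88% were called lower and 0.0573% higher. For the same 2 members every deficient library lay below every control library, which held for 16.4% of tested genes. Nothing is read from the members' counts, because the same contrast was used to choose them. The Frem1 call was lost without control replicate 1, where its log2 fold change was -1.95 and 0 genes were called across the table. For Fras1 the call was lost at a log2 fold change of -1.58 when control replicate 1 was left out, -1.15 for control replicate 2, -1.52 for deficient replicate 2 and -1.28 for deficient replicate 3. In that order, those fits called 0, 61, 264 and 17 genes across the table, against 689 with all libraries. Frem2 was called without control replicate 3, where its log2 fold change was -1.63, and also by DESeq2 (-1.24) and with no filter on low counts (-1.19).

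Exon length was not used in the choice of the members. Their exons span 17709 bases for Fras1, 13978 for Frem1, 13255 for Frem2, 8064 for Grip1 and 6384 for Frem3, and the genes lie on chromosomes 5, 4, 3, 10 and 8. Among tested genes with exons as long as those of Grip1 or longer, 295 of 2466 (12.0%) were called lower, and their log2 fold changes had a median of -0.21 against -0.02 for all tested genes. Where such genes also had a mean of 2 to 10 CPM, as the 4 fitted members did, 193 of 676 (28.6%) were called lower, with a median of -0.60. Every deficient library lay below every control library for 30.2% of genes with exons that long. The same held for 42.6% of those at 2 to 10 CPM. Frem3 is shorter than that threshold and was not tested. This subset was chosen after the values were seen. With offsets corrected for a trend on exon length, the log2 fold changes were -1.81 for Frem1, -1.23 for Fras1, -0.99 for Frem2 and -0.59 for Grip1.

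Levels of different genes were compared per kb of exon. In controls Frem1 was at 0.771 ± 0.211 CPM per kb, Grip1 at 0.614 ± 0.232, Frem2 at 0.482 ± 0.315 and Fras1 at 0.445 ± 0.207 (mean ± SD, n = 3). The means of these neighbours differed by less than their spread between libraries. Within each control library Frem1 was above Grip1 and Grip1 above Frem2, while the order of Frem2 and Fras1 varied. In control replicate 2 Frem1 and Grip1 were nearly equal, at 0.880 and 0.879 CPM per kb. In deficient libraries Grip1 was at 0.368 ± 0.149 CPM per kb, Frem2 at 0.202 ± 0.0827, Frem1 at 0.180 ± 0.0104 and Fras1 at 0.153 ± 0.0605, so Frem1 had moved from the highest place in the order of means to below Frem2, by less than the spread of Frem2.

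The balance of the 3 matrix members was also computed within each library, as a share of their summed CPM per kb. Frem1 made up 52.4%, 37.1% and 53.2% of that sum in the controls and 27.6%, 34.0% and 44.2% in the deficient libraries, with control replicate 2 inside the deficient range. The Frem2 share was 23.7%, 34.9% and 21.2% in the controls and 41.1%, 38.5% and 30.7% in the deficient libraries, again with control replicate 2 inside the deficient range. Fras1 kept to a narrower range, 24.0%, 28.0% and 25.6% in the controls against 31.4%, 27.5% and 25.1% in the deficient libraries.

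The labelled cell type was checked against marker genes. The 17 mesenchymal crest markers summed to 236.6, 319.1 and 198.5 CPM among controls, against 155.5, 130.1 and 125.3 CPM among deficient libraries, with Col1a2 the most abundant at a mean of 71.6 CPM, and 9 of 15 tested were called lower and 0 higher by edgeR, against 4.88% lower and 0.0573% higher of all tested genes. The 12 macrophage markers summed to 12635, 11909 and 13771 CPM among controls, against 13938, 14533 and 15219 CPM among deficient libraries, with Ctss the most abundant at a mean of 3833 CPM. Macrophage genes thus far exceeded crest genes in libraries labelled as NCCs, and the mesenchymal crest sum was lower in each deficient library than in any control. The macrophage sum was higher in each deficient library than in any control. All 12 macrophage genes had a positive log2 fold change, with a median of 0.19, and 0 were called by edgeR, DESeq2 or limma-voom. The largest by edgeR was 0.25 for Aif1, so all 12 were under the fold threshold of the rule. An unadjusted p under 0.05 was found for 9 of the 12 by edgeR, 10 by DESeq2 and 9 by limma-voom. By edgeR adjusted p alone, at the threshold of 0.1, 1 was higher. Sensory neuron markers (12 genes, most abundant Tubb3) summed to 99.3, 174 and 67.5 CPM among controls, against 57.9, 38.2 and 44.8 CPM among deficient libraries. Of 11 tested, 5 were called lower by edgeR, 9 by DESeq2 and 6 by limma-voom. Glial crest markers (8 genes, most abundant Fabp7) summed to 39.2, 60.9 and 31.1 CPM among controls, against 34.4, 22.3 and 25.0 CPM among deficient libraries. Of 5 tested, 1 was called lower by edgeR, 2 by DESeq2 and 1 by limma-voom. Control replicate 2 was highest for the mesenchymal, sensory and glial sums, as it was for Fras1, Frem2 and Grip1. Neural tube markers (16 genes, most abundant Lhx2) summed to 163, 160.0 and 144 CPM among controls, against 153, 149 and 134 CPM among deficient libraries. Lhx2 made up most of these sums, and the other 15 genes summed to 61.9, 77.1 and 45.1 CPM among controls, against 53.3, 44.7 and 23.3 CPM among deficient libraries, with overlapping groups. Of 14 tested neural tube markers 0 were called by edgeR, with 5 at an unadjusted p under 0.05, 2 called lower by DESeq2 and 1 by limma-voom. Of all 13961 tested genes, 3813 had an unadjusted p under 0.05 by edgeR, and 874 were called lower by DESeq2 and 829 by limma-voom. The log2 fold changes of the neural tube markers had a median of -0.74, against -0.02 for all tested genes, and 12 were negative.

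Fras1 and Frem2 are best known from epithelia, so epithelial markers were read beside them. The 14 epithelial markers summed to 4.25, 5.22 and 3.69 CPM among controls, against 1.64, 2.81 and 1.80 CPM among deficient libraries. None of the 14 passed the filter on low counts, the most abundant was Cdh1 at a mean of 0.590 CPM, and the keratin Krt5 had 0 counts in 5 of 6 libraries and 1 count in deficient replicate 3. Per kb of exon the list summed to 1.49, 1.80 and 1.23 CPM per kb among controls, against 0.498, 1.09 and 0.689 among deficient libraries. Erythroid markers (10 genes, most abundant Hbb-y) summed to 28.9, 67.4 and 22.2 CPM among controls, against 22.9, 17.0 and 21.2 CPM among deficient libraries, and endothelial markers (8 genes, most abundant Kdr) to 183, 182 and 204 CPM and to 209, 208 and 223 CPM, of which the 7 genes other than Kdr made up 14.9, 17.7 and 18.1 CPM and 18.6, 18.1 and 20.3 CPM.

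**Figure D2:**
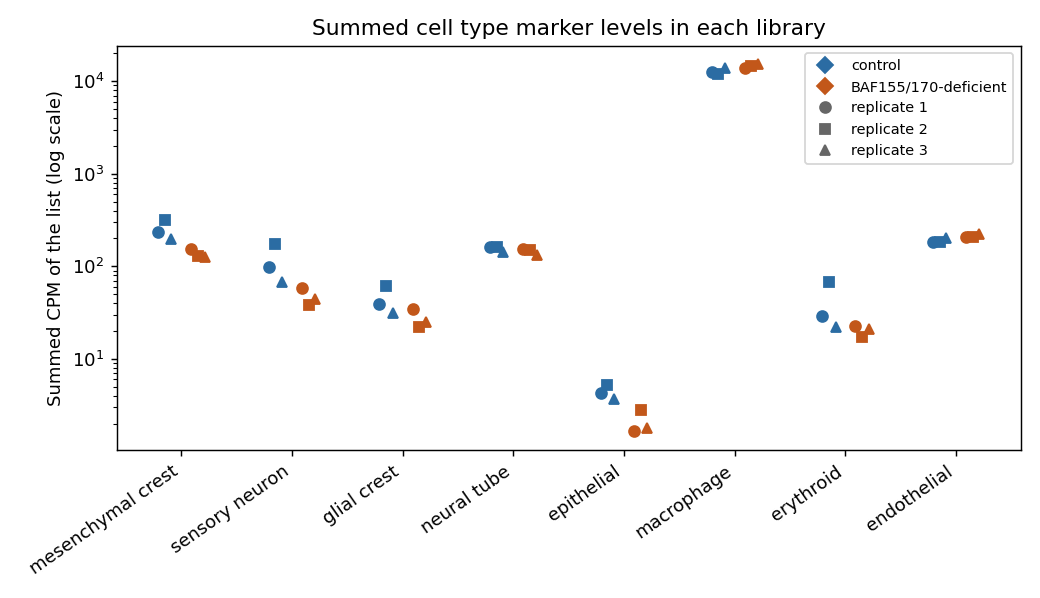
Summed CPM (vertical axis, log scale) of 8 lists of cell type markers in the 3 control libraries (blue) and the 3 deficient libraries (orange), with a marker shape for each replicate. Macrophage genes sum to 11909 CPM or more in all 6 libraries, the mesenchymal crest sum is between 125.3 and 319.1 CPM, and epithelial genes sum to 5.22 CPM or less.

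Per 100 CPM of summed mesenchymal crest markers, Frem1 stood at 5.35, 3.86 and 3.72 CPM among controls, against 1.71, 1.92 and 1.89 CPM among deficient libraries, still without overlap. Fras1 stood at 3.10, 3.69 and 2.27 in the controls and at 2.47, 1.97 and 1.36 in the deficient libraries on the same scale, and the groups overlapped. For Frem2 the means were 2.38 ± 1.02 and 1.91 ± 0.599, and for Grip1 1.93 ± 0.254 and 2.15 ± 0.858 (SD, n = 3), both with overlapping groups. Col1a1 and Col1a2 made up most of the marker sum. Their means were 63.4 and 89.9 CPM of 251.4 CPM in controls, and 38.5 and 53.2 CPM of 137.0 CPM in deficient libraries. Their log2 fold changes were -0.71 and -0.75, against a median of -0.99 for the list, so these ratios are mainly to the 2 collagen genes. When libraries were scaled to the median of 36 embryonic markers, the median over all tested genes shifted on the log2 scale from -0.02 to 0.85, and on that scale Frem1 was at -1.17, Fras1 at -0.62 and Frem2 at -0.28, while Grip1 turned to 0.17. On that scale 76 genes (0.544%) were called lower and 8441 (60.5%) higher across all tested genes, against 681 lower and 8 higher by TMM. The part of cell makeup in the levels was not tested beyond these scalings.

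The extracellular partners of the complex were the nephronectin family ligands Npnt and Egfl6, the integrin chains Itga8 and Itgb1 that bind nephronectin, the Fras1-binding protein Vwa2 (AMACO), the fibulin-like matrix protein hemicentin-1 (Hmcn1) and the protease Furin. Of 7 genes 5 were tested. Hmcn1 was called lower and no gene was called higher by edgeR. At an adjusted p of at most 0.1 alone, 2 were lower and 1 was higher, against 7.75% lower and 4.18% higher of all tested genes, and the median log2 fold change of the list was -0.86 against -0.02 for all tested genes, and 0.09 against 0.85 with scaling to embryonic markers. With 5 genes that median is the value of Npnt, and it was -0.43 when control replicate 2 was left out and -0.38 for deficient replicate 2. Npnt itself was not tested without deficient replicate 3, where the median over the remaining genes was -0.53. Nor was it tested with a minimum count of 30, where the median was 0.12 over 3 genes. The exons of Hmcn1 span 21191 bases. Of tested genes with exons as long as those of Grip1 or longer, 12.0% were called lower.

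Hmcn1 stood at 27.3, 30.2 and 18.2 CPM among controls, against 12.5, 9.71 and 6.50 CPM among deficient libraries. The groups did not overlap, and Hmcn1 fell by 1.41 on the log2 scale (SE 0.278, edgeR adjusted p = 0.0668). The call ended, leaving 0 list genes called by edgeR with 3 at an unadjusted p under 0.05, without control replicate 1 or 2 or deficient replicate 2 or 3, with log2 fold changes from -1.64 to -1.18 over the left-out libraries. Those fits, in that order, called 0, 61, 264 and 17 genes across the table, against 689 with all libraries. They had 2547, 2361, 3213 and 2200 genes at an unadjusted p under 0.05. The Hmcn1 call also ended with scaling to embryonic markers (-0.53), where Itgb1 (1.01) and Furin (1.08) were called higher, as were 60.5% of all tested genes, at a median of 0.85. Itga8 fell by 1.60 (SE 0.405, edgeR adjusted p = 0.0708), at 1.60, 3.34 and 2.79 CPM among controls, against 1.17, 0.733 and 0.665 CPM among deficient libraries, but its mean was under 2 CPM. Its partner chain Itgb1 was abundant, at 379.7, 355.7 and 381.7 CPM among controls, against 400.9, 410.3 and 427.6 CPM among deficient libraries, with a log2 fold change of 0.15 (SE 0.0588, edgeR adjusted p = 0.134). Furin, which cleaves matrix precursors, rose by 0.23 (SE 0.0689, edgeR adjusted p = 0.0888), under the fold threshold. Npnt was at a log2 fold change of -0.86 (SE 0.632, edgeR adjusted p = 0.407), turning to 0.09 with scaling to embryonic markers, and it was -0.43 without control replicate 2 and -0.38 without deficient replicate 2. Its counts were between 2 and 19 in each library. Egfl6 and Vwa2 did not pass the filter on low counts.

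Grip1 binds the AMPA receptor subunits Gria2 and Gria3, the ephrin-B ligands Efnb1, Efnb2 and Efnb3, the receptor Ephb2, the proteoglycan Cspg4, the motor Kif5b and Gripap1, and Grip2 is its paralogue. Of these 10 genes 9 were tested, and 4 were called lower and 0 higher by edgeR, against 4.88% called lower and 0.0573% higher of all tested genes. An unadjusted p under 0.05 (edgeR) was found for 5, against 3813 of all 13961 tested genes. DESeq2 called 5 lower, against 874 of all tested genes. The median log2 fold change of the list was -1.02 against -0.02 for all tested genes, and -0.16 against 0.85 with scaling to embryonic markers. The called genes were Gria2, Efnb1, Efnb3 and Ephb2. Some of these are long, with 15548 exon bases for Gria2 and 12608 for Ephb2. Of tested genes with exons as long as those of Grip1 or longer, 12.0% were called lower. Where these were also at 2 to 10 CPM the share was 28.6%, with a median log2 fold change of -0.60. With offsets corrected for exon length the list median was -1.02, against 0.02 for all tested genes, and 4 of the list were called lower.

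Ephb2 stood at 21.8, 32.1 and 12.9 CPM among controls, against 10.6, 7.03 and 7.36 CPM among deficient libraries, and it fell by 1.41 (SE 0.357, edgeR adjusted p = 0.0901). Its ligand Efnb1 stood at 9.15, 10.4 and 5.42 CPM among controls, against 5.33, 3.73 and 2.85 CPM among deficient libraries, and it fell by 1.07 (SE 0.297, edgeR adjusted p = 0.0801). Neither gene overlapped between the groups, although control replicate 3 and deficient replicate 1 of Efnb1 were nearly equal. Efnb3 fell by 1.02 (SE 0.240, edgeR adjusted p = 0.0644) and Gria2 by 1.28 (SE 0.381, edgeR adjusted p = 0.0901), whose call was lost with a minimum count of 30 (-1.30). Gria3 passed the adjusted p (0.0765, edgeR) with a log2 fold change of -1.52 but had a mean under 2 CPM. Efnb2 was not called at -0.91 (edgeR adjusted p = 0.198), nor were Cspg4 at -0.40, Gripap1 at 0.11 and Kif5b at 0.03, and Grip2 did not pass the filter on low counts. With each library left out, the log2 fold change of Cspg4 ran from -0.71 without deficient replicate 1 to -0.11 without control replicate 2, that of Gripap1 from 0.014 without control replicate 2 to 0.20 without control replicate 3, and that of Kif5b from -0.020 without control replicate 3 to 0.082 without control replicate 1. Efnb2 was called lower by DESeq2 (-0.89), with no filter (-0.86) and without control replicate 3 (-1.15) or deficient replicate 1 (-1.28). The count of called partners went from 4 to 0 by edgeR when control replicate 1, control replicate 2 or deficient replicate 3 was left out, with 5, 6 and 6 genes at an unadjusted p under 0.05, and to 1 without deficient replicate 2. In the same order, those fits called 0, 61, 17 and 264 genes across the table, against 689 with all libraries. They had 2547, 2361, 2200 and 3213 genes at an unadjusted p under 0.05. Each of the 4 partner calls held in 2 of the 6 fits that left out 1 library. Over those 6 fits the log2 fold changes ran from -1.79 to -0.91 for Gria2 and from -1.33 to -0.87 for Efnb1. They ran from -1.18 to -0.91 for Efnb3 and from -1.70 to -1.06 for Ephb2. With scaling to embryonic markers all 4 lower calls ended, at -0.40 for Gria2, -0.18 for Efnb1, -0.16 for Efnb3 and -0.46 for Ephb2, and Gripap1 (0.95) and Kif5b (0.91) were called higher, as were 60.5% of all tested genes.

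The core basement membrane list set the complex beside the sheet it binds to. Of its 30 genes 25 were tested, and by edgeR 6 were called lower and 0 higher, against 4.88% called lower and 0.0573% higher of all tested genes. An unadjusted p under 0.05 (edgeR) was found for 15, against 3813 of all 13961 tested genes. DESeq2 called 10 lower, against 874 of all tested genes. By edgeR adjusted p alone, at the threshold of 0.1, 9 of the list were lower and 0 higher, against 7.75% and 4.18% of all tested genes. The median log2 fold change was -0.78 against -0.02 for all tested genes, and 0.15 against 0.85 with scaling to embryonic markers. The called genes were the laminin chains Lama1, Lama2 and Lamb1, the nidogens Nid1 and Nid2, which link laminin to collagen IV, and the calcium-binding matrix protein Smoc1. Many genes of the list are long, such as Lama2 with 16338 exon bases. Of tested genes with exons as long as those of Grip1 or longer, 12.0% were called lower. Where these were also at 2 to 10 CPM the share was 28.6%, with a median log2 fold change of -0.60. With offsets corrected for exon length the list median was -0.59, against 0.02 for all tested genes, and 6 of the list were called lower.

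Laminin-111 is the embryonic laminin made of the chains Lama1, Lamb1 and Lamc1. Lama1 stood at 7.55, 18.7 and 6.24 CPM among controls, against 2.74, 4.58 and 2.23 CPM among deficient libraries, and it fell by 1.74 (SE 0.495, edgeR adjusted p = 0.0965). Its call held in 1 of the 6 fits that left out a library, the one without control replicate 3. Over those fits its log2 fold change ran from -2.10 without deficient replicate 2 to -1.11 without control replicate 2. The call was also lost with a minimum count of 30, at -1.77. Lamb1 stood at 10.7, 17.4 and 7.71 CPM among controls, against 5.33, 3.36 and 3.09 CPM among deficient libraries, and it fell by 1.61 (SE 0.327, edgeR adjusted p = 0.0583). That call held in 2 of those 6 fits, with log2 fold changes from -1.87 to -1.24 over them. Lamc1, the shared gamma chain, stood at 37.0, 44.8 and 35.9 CPM among controls, against 39.5, 34.3 and 37.8 CPM among deficient libraries. The groups did not overlap for Lama1 and Lamb1 and overlapped for Lamc1, whose log2 fold change was -0.07 (SE 0.0965, edgeR adjusted p = 0.677). It ran from -0.13 without control replicate 3 to 0.032 without control replicate 2. Whether Lamc1 differed from Lama1 and Lamb1 in its change was not tested.

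Lama2 fell by 1.69 (SE 0.445, edgeR adjusted p = 0.0765), Nid1 by 1.81 (SE 0.394, edgeR adjusted p = 0.0676), Nid2 by 1.20 (SE 0.313, edgeR adjusted p = 0.0762) and Smoc1 by 1.60 (SE 0.386, edgeR adjusted p = 0.0666). With each library left out, the calls of Lama2 and Nid1 held in 3 of 6 fits and those of Nid2 and Smoc1 in 2. Over those fits the log2 fold changes ran from -2.02 to -1.14 for Lama2 and from -2.11 to -1.24 for Nid1. They ran from -1.44 to -0.94 for Nid2 and from -1.99 to -1.25 for Smoc1. The other tested laminin chains were not called, at log2 fold changes of -1.07 for Lama4, -0.21 for Lama5 and -0.02 for Lamb2. Lama5 ran from -0.69 without deficient replicate 2 to 0.15 without deficient replicate 3, and Lamb2 from -0.53 to 0.28 without the same libraries. Lama4 was at -0.56 without control replicate 2, and it was called lower without control replicate 3 (-1.19), by DESeq2 (-1.06), with library totals (-0.98) and with no filter on low counts (-1.01). Lama3, Lamb3 and Lamc3 did not pass the filter on low counts. Per kb of exon the highest levels in controls were those of Agrn at 8.62 ± 2.03, Sparc at 6.65 ± 0.912 and Dag1 at 6.46 ± 0.510 CPM per kb (SD, n = 3), and their log2 fold changes of -0.58, -0.22 and -0.15 were not called, although Agrn was called lower at -0.72 without control replicate 3. The count of called basement membrane genes went from 6 to 0 by edgeR without control replicate 1 or deficient replicate 3, with 14 and 9 genes at an unadjusted p under 0.05, and it was 2 when control replicate 2, 1 when deficient replicate 2 and 12 when control replicate 3 was left out. In the same order, those fits called 0, 17, 61, 264 and 1245 genes across the table, against 689 with all libraries. The first of these fits had 2547 genes at an unadjusted p under 0.05 and the next had 2200. With scaling to embryonic markers 3 were called lower, Lama1, Lamb1 and Nid1, and 6 higher, against 0.544% lower and 60.5% higher of all tested genes, and the calls of Lama2 (-0.69), Nid2 (-0.29) and Smoc1 (-0.78) ended.

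**Figure D3:**
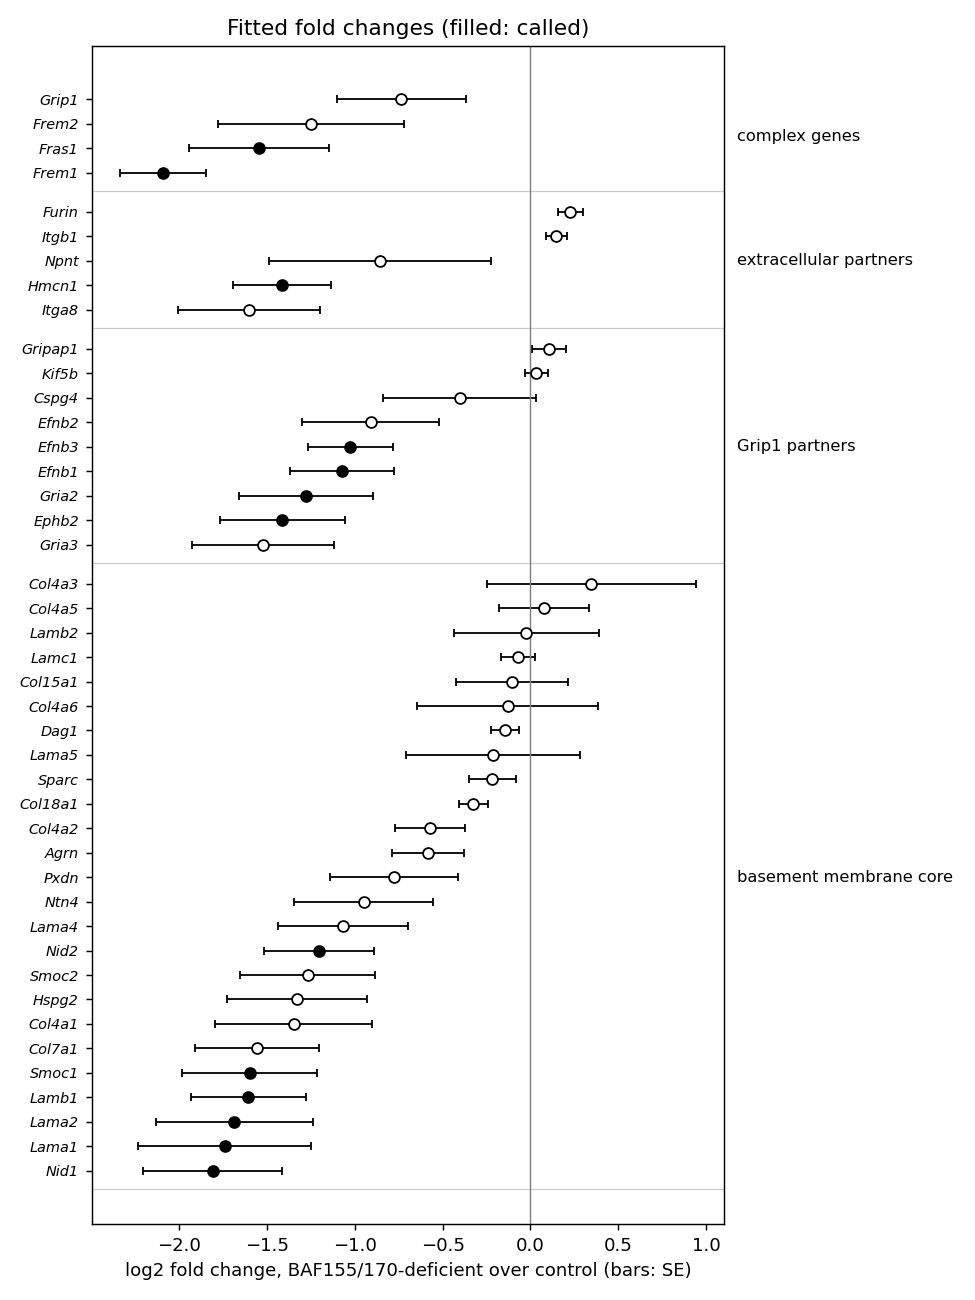
Fitted log2 fold changes (horizontal axis, deficient over control, bars SE) of the tested complex genes, extracellular partners, Grip1 partners and basement membrane genes, with filled circles for called genes. Called genes lie from -2.09 for Frem1 to -1.02 for Efnb3; with scaling to embryonic markers the log2 fold change of Grip1 turned to 0.17, and the medians of the extracellular and basement membrane lists were 0.09 and 0.15, against 0.85 for all tested genes.

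Genes whose levels followed each member most closely over the 6 libraries were ranked by the root mean square difference of centred log2 CPM among 10732 other protein-coding genes. For Frem1 these were Ddr2, a collagen receptor, with a difference of 0.133, and Sned1, a matrix protein, with 0.151. Ddr2 stood at 11.0, 12.6 and 7.06 CPM among controls, against 2.74, 2.69 and 1.95 CPM among deficient libraries, and its likeness to Frem1 follows from how it was picked. For Fras1 they were the neurofilament gene Nefl (0.0829) and Kif26a (0.117), for Frem2 Hoxa9 (0.127) and the growth factor gene Mdk (0.155), and for Grip1 Nav3 (0.0671) and the phosphatase gene Ptprs (0.0936).

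Promoter sequences from RefSeq (GRCm38.p6) were matched for 4 of the 5 genes, Frem1, Frem2, Frem3 and Grip1, in 7 windows of 300 bases, and Fras1 had no entry. They were searched on both strands for GGAATG, whose reverse complement is CATTCC, the core letters bound by Tead factors, a motif chosen after the values were seen. The letters were found in 3 of the 7 windows, of Frem2, Frem3 and Grip1, and in 14.7% of all 32851 windows of that length. The windows below are shown to set Frem1, the member with the widest gap between groups, beside Frem2 and Grip1, whose groups overlapped. They are the window at the start of Frem1 (chr4:83052117-83052416, minus strand), that of Frem2 (chr3:53657306-53657605, minus strand), a start inside Grip1 (chr10:119819139-119819438, plus strand) and the first start of Grip1 (chr10:119453784-119454083, plus strand), written 5′ to 3′ with the searched letters in capitals. The letters were in the window of Frem2 and in the inner window of Grip1, and were not in the other 2 windows of Grip1 or in either window of Frem1. A match is a description of letters and no match says only that they are not in that window.
Frem1: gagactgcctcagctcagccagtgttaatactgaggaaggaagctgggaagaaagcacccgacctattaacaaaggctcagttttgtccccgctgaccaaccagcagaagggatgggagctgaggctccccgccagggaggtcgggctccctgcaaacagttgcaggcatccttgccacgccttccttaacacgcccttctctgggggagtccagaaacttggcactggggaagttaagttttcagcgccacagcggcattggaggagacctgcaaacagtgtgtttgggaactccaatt
Frem2: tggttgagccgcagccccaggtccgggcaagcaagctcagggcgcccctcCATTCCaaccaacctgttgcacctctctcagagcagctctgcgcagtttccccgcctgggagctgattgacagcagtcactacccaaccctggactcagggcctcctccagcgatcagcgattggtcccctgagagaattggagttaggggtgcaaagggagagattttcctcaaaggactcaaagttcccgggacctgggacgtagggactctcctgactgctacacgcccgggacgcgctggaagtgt
Grip1 inner start: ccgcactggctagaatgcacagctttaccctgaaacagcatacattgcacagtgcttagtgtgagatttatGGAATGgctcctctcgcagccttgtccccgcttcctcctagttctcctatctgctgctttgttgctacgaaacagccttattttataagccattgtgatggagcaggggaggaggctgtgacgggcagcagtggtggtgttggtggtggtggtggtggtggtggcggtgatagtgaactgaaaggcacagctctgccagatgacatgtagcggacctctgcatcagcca
Grip1 first start: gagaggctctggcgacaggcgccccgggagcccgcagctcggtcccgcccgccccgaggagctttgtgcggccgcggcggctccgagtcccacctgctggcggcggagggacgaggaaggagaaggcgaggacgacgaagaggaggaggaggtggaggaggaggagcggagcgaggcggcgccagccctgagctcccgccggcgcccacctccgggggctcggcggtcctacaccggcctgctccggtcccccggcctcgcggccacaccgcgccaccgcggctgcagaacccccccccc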

How the data were processed

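The authors deposited whole-number counts per gene for 6 libraries, without normalization. Strand-specific poly(A) libraries had been read as paired ends, and the submitters' processing notes name FastQC 0.11.7, cutadapt 1.18, STAR, featureCounts, limma and the build GRCm38. The annotation release, strand setting and handling of multi-mapping reads are not given in the sources used here. Gene names came from GENCODE M21, with 46488 of 46983 rows named.

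Counts were fitted in R 4.3.3 with edgeR 4.0.16 (filterByExpr with minimum count 10, TMM, robust quasi-likelihood, condition as the only term) and Benjamini-Hochberg adjustment over 13961 genes, and the fit was tested on simulated data. CPM used TMM-scaled library sizes. DESeq2 1.42.0 and limma 3.58.1 (voom) were alternatives. The members and lists were chosen with earlier results of these data known. Named genes were the members, Smarcc1 and Smarcc2, all extracellular and Grip1 partners, called basement membrane genes, laminin chains, the 3 basement membrane genes highest per kb in controls, and the 2 genes most like each member. Nothing states that the samples of a group came from separate litters, so the adjusted p measures the spread between these samples. Results that need withheld items are not reported here. Summaries used pandas 2.3.3 and scipy 1.17.1 in Python 3.11.15, and figures matplotlib 3.10.9.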

Additional observations from a re-analysis of the deposited data

How the results depend on the processing

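Frem1, Fras1 and Frem2 kept a negative log2 fold change in every setting run, and Grip1 did so in all but the scaling to embryonic markers. That scaling gave -1.17 for Frem1, -0.62 for Fras1, -0.28 for Frem2 and 0.17 for Grip1, against a median of 0.85 over all tested genes. With each library left out the log2 fold change ran from -2.31 to -1.95 for Frem1, from -1.87 to -1.15 for Fras1, from -1.63 to -0.63 for Frem2 and from -1.003 to -0.40 for Grip1. The cause was not tested.

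Genes called across the table numbered 689, against 94 at an adjusted p of 0.05, 1476 with no fold threshold, 8517 with scaling to embryonic markers and 0 to 1245 with each library left out. The 0 came without control replicate 1 by edgeR, with 2547 genes at an unadjusted p under 0.05, against 3813 with all libraries. Members called numbered 2, against 3 by DESeq2, 3 with no filter on low counts, 3 with the replicate block and length offsets, 1 at an adjusted p of 0.05, 1 with that scaling and 0 to 3 with each library left out. Here too nothing is read from the members' counts, because the same contrast was used to choose them. Extracellular partners called numbered 1, against 0 at an adjusted p of 0.05 by edgeR (4 at an unadjusted p under 0.05), 2 with no fold threshold, 2 with the marker scaling (0 lower and 2 higher) and 0 to 1 with each library left out. DESeq2 gave an adjusted p of 2.6e-06 for Hmcn1, 0.034 for Itga8 and 0.016 for Furin, and above 0.05 for Npnt (0.56) and Itgb1 (0.075). Grip1 partners called numbered 4, against 0 at an adjusted p of 0.05 by edgeR (5 at an unadjusted p under 0.05), 2 with the marker scaling (0 lower and 2 higher) and 0 to 5 with each library left out. By DESeq2 the adjusted p was under 0.05 for Gria2, Efnb1, Efnb2, Efnb3 and Ephb2. Basement membrane genes called numbered 6, against 10 by DESeq2, 0 at an adjusted p of 0.05 by edgeR (15 at an unadjusted p under 0.05), 9 with the marker scaling (3 lower and 6 higher) and 0 to 12 with each library left out.

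With the replicate number as a block, 1164 genes and 4 members were called. By the numbers in the sample titles, which the block follows, the correlations of same-numbered libraries were 0.0284, -0.0335 and 0.293, and not every library correlated best with its own number. The count columns number the deficient libraries from 2 to 4, which would pair control replicates 2 and 3 with deficient replicates 1 and 2, at 0.261 and 0.000418. Pairing was borne out by neither numbering.

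The marker scaling moved the median log2 fold change over all tested genes from -0.02 to 0.85. With that scaling the log2 fold change turned to 0.19 for Smarcc1, 0.75 for Smarcc2, 0.086 for Npnt, 0.49 for Cspg4, 0.72 for Lama5, 0.85 for Lamb2, 0.81 for Lamc1, 0.32 for Agrn, 0.73 for Dag1, 0.68 for Sparc, 0.093 for Nav3 and 0.20 for Ptprs. Lamb2 turned to 0.026 with library totals, 0.028 with no filter and 0.053 with length offsets, and Lamc1 to 0.082 with length offsets and 0.082 with the replicate block and length offsets. With each library left out Kif5b ran from -0.020 to 0.082, Lama5 from -0.69 to 0.15, Lamb2 from -0.53 to 0.28 and Lamc1 from -0.13 to 0.032. The Smarcc1 call ended with length offsets (-0.57) and with the replicate block and length offsets (-0.56).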
